A study of Mus musculus with 6 samples.

Results

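Kallikreins, matriptase, prostasin, the inhibitor LEKTI and the receptor PAR2 form the protease circuit that sheds the surface of the skin, and 10 of its genes, among the 30386 in the deposited table, are described here in back skin epidermis of E18.5 mouse embryos. They are the kallikrein genes Klk5, Klk6, Klk7, Klk8, Klk10 and Klk11, the protease genes St14 (matriptase) and Prss8 (prostasin), the inhibitor gene Spink5 and the receptor gene F2rl1 (PAR2). They were chosen by name for their place in this circuit, with earlier results of these data known. F2rl1 was instead picked for its higher level in the knockout. The difference in F2rl1 is therefore given as a description, with no test. The groups were 3 libraries of the genotype p63alphaKO and 3 wild-type (WT) libraries, at the same embryonic age. The alpha forms of the p63 transcription factor, encoded by Trp63, carry the longest carboxy terminus, and the study's title sets the question of how epidermal homeostasis fares when p63 isoforms are altered. The sources used here do not say how the allele was made, which strain was used, or whether a library stands for 1 embryo or a pool, so p-values measure only the spread between these libraries.

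In the outermost epidermis, kallikreins are released from lamellar granules and cut the proteins that hold dead cells together, so that these cells are shed. KLK5 and KLK7 cut corneodesmosin and desmosomal cadherins, LEKTI blocks them in the deeper, less acid layers, and loss of LEKTI in people causes the scaling disease Netherton syndrome. Matriptase and prostasin act upstream in barrier formation, and trypsin-like members of the circuit can activate PAR2, a receptor on keratinocytes that is switched on when a protease cuts its outer end.

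The proteases differ in which residue they cut after, and this is set largely by a pocket that lies a few codons before the active-site serine. The coding stretches around both sites are shown because they sort the members by this choice. Each is written 5′ to 3′ on the coding strand, read from the GENCODE vM21 transcripts on mm10/GRCm38, with the pocket codon and the active-site serine codon in capitals.
Klk5: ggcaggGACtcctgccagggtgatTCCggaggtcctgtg
Klk6: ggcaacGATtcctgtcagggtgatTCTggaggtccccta
Klk7: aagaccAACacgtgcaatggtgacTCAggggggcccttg
Klk8: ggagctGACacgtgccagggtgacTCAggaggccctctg
Klk10: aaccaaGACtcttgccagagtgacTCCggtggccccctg
Klk11: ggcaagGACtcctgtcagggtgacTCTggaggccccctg
St14: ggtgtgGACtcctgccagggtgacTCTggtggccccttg
Prss8: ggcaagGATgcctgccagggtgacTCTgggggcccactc
Of these 8 stretches, 7 had an aspartate codon in the pocket, the residue of trypsin-like proteases, which cut after arginine or lysine. Klk7 had an asparagine codon there, and its protein is known as a chymotrypsin-like enzyme. Each stretch of 39 bases crossed 1 intron. In the genome that of Klk7 ran over chr7:43813349-43815317 on the plus strand, from exon 5 into exon 6 of its 6 exons, and that of St14 over chr9:31090007-31090419 on the minus strand. In F2rl1 the corresponding landmark is the tethered ligand, the new outer end that cutting exposes and that then switches the receptor on. It is shown in capitals after the codons of the cut site, in exon 2 of 2, at chr13:95514241-95514270 on the minus strand.
F2rl1: agtaaaggaagaAGTCTTATTGGCAGATTA

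Levels are in CPM, the reads of a gene scaled by the authors to the library's total, from a method that reads the 3′ ends of mRNAs, so they do not grow with transcript length. The libraries held 3539604, 3431580 and 3350442 reads in p63alphaKO replicates 1, 2 and 3 and 2564407, 4474764 and 3174444 reads in WT replicates 1, 2 and 3. Epidermal markers were present in both groups but not alike. Of the 5 spinous markers, 3 had positive and 2 negative fold changes, and 1 was called. That was the keratin gene Krt77, which rose (log2 fold change 1.87, adjusted p = 0.000219 by limma). The most abundant of them, the keratin genes Krt10 and Krt1, had values of -0.10 and -0.011. Of the 6 basal markers, Krt15, a keratin of basal and hair follicle cells, fell (-1.80, adjusted p = 0.00164 by limma). The 5 other basal markers had positive fold changes and were not called. Of 6 hair follicle markers, the inner root sheath keratins Krt71 and Krt25 also fell, while the other 4 had positive fold changes and were not called. Markers of other cell types went with the genotype in different directions. Those of dermis, muscle, blood and vessels were lower in every p63alphaKO library than in any WT library by their summed CPM, with dermis between 249 and 586 CPM in p63alphaKO and between 2054 and 4749 CPM in WT. The summed CPM of the 5 melanocyte markers was higher in every p63alphaKO library, at 445, 416 and 312 CPM in p63alphaKO and 182, 263 and 297 CPM in WT. Taken singly, the marker gene Dct alone did not overlap between the groups. The 6 immune markers overlapped, at 11.9, 14.6 and 5.66 CPM in p63alphaKO and 17.5, 14.1 and 20.5 CPM in WT. In bulk RNA, fewer cells of a type and less RNA per cell cannot be told apart.

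None of the 9 members other than F2rl1 passed the test, while most of their fold changes were positive. The test was limma-trend on log2(CPM + 1), two-sided, with Benjamini-Hochberg adjustment over the 7464 genes whose mean reached 10 CPM, and a gene was called at an adjusted p under 0.05. It called 0 of the 9 members, where 1.65% of all tested genes were called, 0.469% as higher and 1.18% as lower. At an unadjusted p under 0.05 there were 4 of 9 members, against 15.6% of tested genes. Fold changes were positive for 7 of 9 members, and their median log2 value was 0.34, while 40.2% of all tested genes were positive, with a median of -0.085. Klk6, which is among these 4 and these 7, passed the minimum through its p63alphaKO level, since its WT mean was 4.48 CPM. It so had to differ to be counted. The members were chosen with earlier results of these data known, so these shares describe the list and are no test of it. Other scalings moved the median of all tested genes to 0.018 (TMM) and 0.048 (upper quartile), and the direction of Klk8 turned with them. edgeR on the reads recovered from the CPM values also called 0 of the 9, with 1.1% of genes called, and DESeq2 called 1, Klk6, with 4.25% of genes called.

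**Figure D1:**
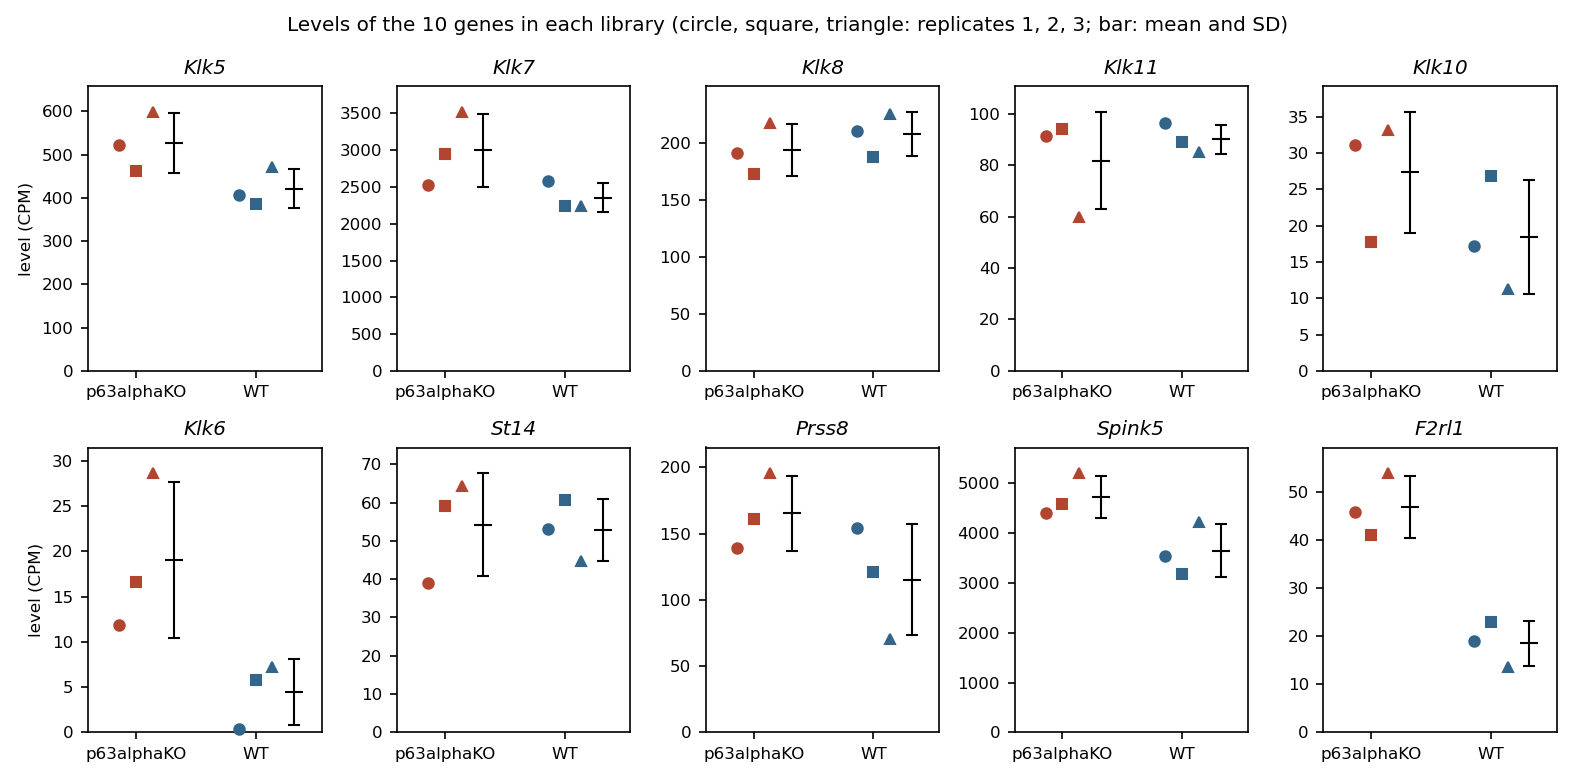
CPM of each gene in each library, p63alphaKO left and WT right in each panel, with symbols for replicates and a bar for the mean and SD (n = 3). The groups do not overlap for Klk6, Spink5 and F2rl1, where 7.6% of all tested genes are higher in p63alphaKO with no overlap. Klk6 was tested only through its p63alphaKO level, so for it that share does not measure how unusual this is. F2rl1, picked for its difference, lies between 41.1 and 54.0 CPM in p63alphaKO and between 13.5 and 23.0 CPM in WT.

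Klk5, the trypsin-like kallikrein that in human skin activates itself and then other kallikreins, was slightly higher on average in p63alphaKO, with overlapping groups. Klk5 (ENSMUSG00000074155, chr7:43841971-43851181, plus strand, mm10) was at 521, 462 and 599 CPM in p63alphaKO replicates 1, 2 and 3 and 408, 386 and 471 CPM in WT replicates 1, 2 and 3. Of the p63alphaKO libraries, 2 lay above every WT library and the other lay below WT replicate 3. The log2 fold change was 0.32 (95% interval -0.025 to 0.66, adjusted p = 0.362 by limma), so the fitted fold lay between 0.983 and 1.58.

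Klk7, the chymotrypsin-like enzyme that cuts corneodesmosin, was the most abundant of the kallikreins here in CPM of 3′ reads. Klk7 (ENSMUSG00000030713, chr7:43811294-43816359, plus strand) was at 2531, 2953 and 3520 CPM in p63alphaKO and 2584, 2239 and 2238 CPM in WT. The lowest p63alphaKO library lay just under the highest WT library, and the other p63alphaKO libraries lay above all WT libraries. The log2 fold change was 0.34 (interval 0.0014 to 0.68, adjusted p = 0.318 by limma). The value was 0.22 without p63alphaKO replicate 3, the library with the highest Klk7 level.

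Klk8 and Klk11, trypsin-like kallikreins also found in human cornified layer, had fold changes near 0. Klk8 (ENSMUSG00000064023, chr7:43797577-43803826, plus strand) was at 191, 173 and 218 CPM in p63alphaKO and 210, 187 and 226 CPM in WT, a log2 fold change of -0.10 (interval -0.46 to 0.26, adjusted p = 0.832 by limma). Klk11 (ENSMUSG00000067616, chr7:43774604-43779263, plus strand) was at 91.2, 94.1 and 60.0 CPM in p63alphaKO and 96.2, 88.9 and 85.0 CPM in WT, a log2 fold change of -0.16 (interval -0.61 to 0.28, adjusted p = 0.770). p63alphaKO replicate 3 stood below every other library for Klk11, and without it the value was 0.042. Exons of Klk8 overlap those of 2310002F09Rik on the other strand, so Klk8 reads are uncertain if counting did not use the strand.

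Klk10 and Klk6 were the scarcest kallikreins among the members. Klk10 (ENSMUSG00000030693, chr7:43781035-43785410, plus strand) was at 31.1, 17.8 and 33.1 CPM in p63alphaKO and 17.1, 26.8 and 11.3 CPM in WT, a log2 fold change of 0.57 (interval -0.16 to 1.31, adjusted p = 0.459 by limma). Its groups overlapped, since p63alphaKO replicate 2 lay under WT replicate 2. Without WT replicate 3, the lowest library, the value was 0.29, and without WT replicate 2 it was 0.87.

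Klk6, a trypsin-like kallikrein best known from brain and also made by keratinocytes, had the largest fold change of the members tested, at very low levels. Klk6 (ENSMUSG00000050063, chr7:43824499-43832030, plus strand) was at 11.9, 16.6 and 28.6 CPM in p63alphaKO, which is 42, 57 and 96 reads, and at 0.39, 5.81 and 7.24 CPM in WT, which is 1, 26 and 23 reads. Every p63alphaKO library lay above every WT library, as for 7.6% of all tested genes. Since Klk6 was tested only through its p63alphaKO level, that share does not measure how unusual this is. The log2 fold change was 2.14 (SE 0.65, interval 0.76 to 3.52, adjusted p = 0.106 by limma). WT replicate 1, with its 1 read, weighed most on this size, and leaving it out gave a value of 1.33. On the recovered reads the value was 2.15 with edgeR (adjusted p = 0.112) and 2.20 with DESeq2 (adjusted p = 0.00696), so the call depended on the tool.

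**Figure D2:**
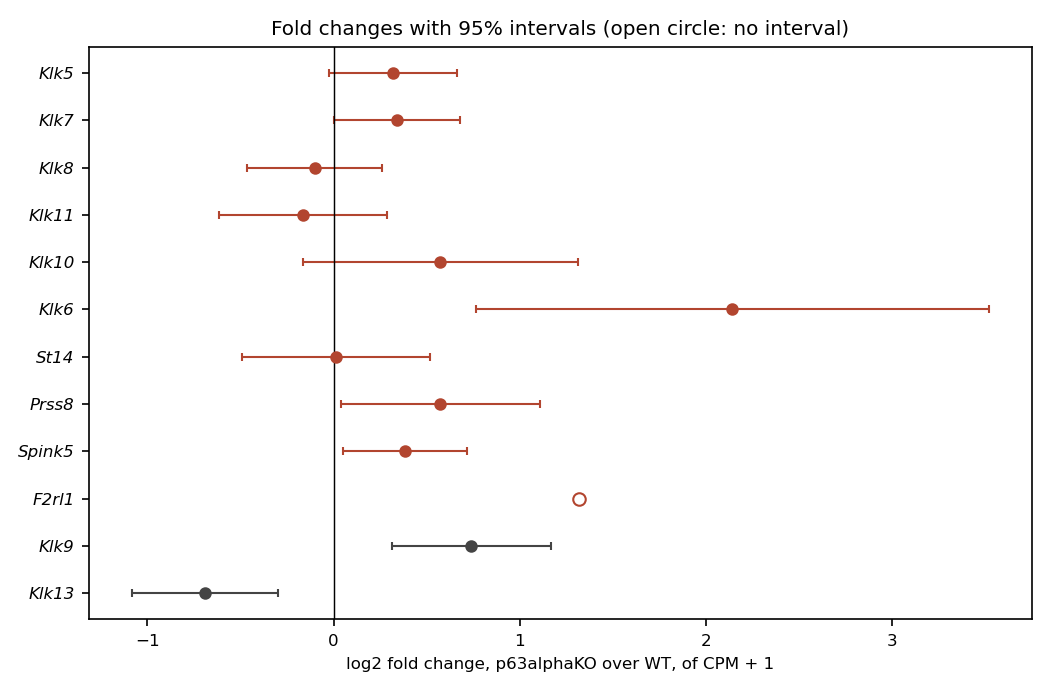
Log2 fold change of CPM + 1, p63alphaKO over WT, with 95% intervals from limma for the members and, in grey, for Klk9 and Klk13. F2rl1, chosen for its difference, is an open circle with no interval at 1.32, and the interval of Klk6 runs from 0.76 to 3.52.

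St14 encodes matriptase, a membrane-bound protease that in mice is needed for a working skin barrier, and Prss8 encodes prostasin, the membrane-anchored protease that acts with it. St14 (ENSMUSG00000031995, chr9:31089402-31131853, minus strand) was at 39.0, 59.1 and 64.4 CPM in p63alphaKO and 52.99, 60.7 and 44.7 CPM in WT. The p63alphaKO group held both the lowest and the highest library, and the log2 fold change was 0.015 (interval -0.49 to 0.52, adjusted p = 0.988 by limma). Prss8 (ENSMUSG00000030800, chr7:127925716-127930104, minus strand) was at 139, 161 and 195 CPM in p63alphaKO and 154, 121 and 70.5 CPM in WT, a log2 fold change of 0.57 (interval 0.039 to 1.11, adjusted p = 0.287). Its groups overlapped through WT replicate 1, and the value was 0.26 without WT replicate 3, the lowest library, and 0.82 without WT replicate 1. Exons of Prss8 overlap those of Kat8 on the other strand, which was at 11.6, 13.4 and 4.47 CPM in p63alphaKO and 17.9, 7.59 and 14.5 CPM in WT.

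Spink5, the gene of LEKTI, was among the 20 genes with the highest mean in the table. It was higher in each p63alphaKO library than in any WT library, as were 7.6% of all tested genes. Spink5 (ENSMUSG00000055561, chr18:43963235-44022501, plus strand) was at 4391, 4587 and 5191 CPM in p63alphaKO and 3528, 3180 and 4216 CPM in WT. The gap between p63alphaKO replicate 1 and WT replicate 3 was small beside the range within either group. The log2 fold change was 0.38 (SE 0.16, interval 0.048 to 0.71, adjusted p = 0.247 by limma), which is 1.30-fold, and it did not pass the test.

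F2rl1, the receptor gene picked for this difference, was at 46.0, 41.1 and 54.0 CPM in p63alphaKO and 19.1, 23.0 and 13.5 CPM in WT. These are 163, 141 and 181 reads in p63alphaKO and 49, 103 and 43 reads in WT. F2rl1 (ENSMUSG00000021678, chr13:95511732-95525227, minus strand, 2 exons) averaged 47.0 ± 6.52 CPM in p63alphaKO and 18.54 ± 4.75 CPM in WT (SD, n = 3 each), a ratio of means of 2.54. Its log2 fold change was 1.32, and it lay between 1.12 and 1.48 when 1 library at a time was left out. PAR2 is also made by cells other than keratinocytes. The dermal, muscle, erythroid and vessel marker sums ran opposite to F2rl1, the immune sum overlapped between the groups, and the melanocyte sum ran the same way as F2rl1. Dct, the melanocyte marker with the highest mean, was at 373, 324 and 255 CPM in p63alphaKO and 131, 199 and 244 CPM in WT. The part of these cells in the F2rl1 values was not tested. The collagen gene Col1a1, for example, was at 29.4, 106 and 34.6 CPM in p63alphaKO and 1347, 468 and 938 CPM in WT.

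F2r, the gene of the thrombin receptor PAR1, differed little. F2r was at 17.8, 18.4 and 21.2 CPM in p63alphaKO and 17.1, 18.1 and 12.9 CPM in WT, a log2 fold change of 0.25 (interval -0.39 to 0.88, adjusted p = 0.752 by limma). Of the other receptors of the family, F2rl2 was at 0 in all 6 libraries, which allows up to 0.895 CPM in the p63alphaKO library and 1.17 CPM in the WT library with the widest limit, and F2rl3 had reads in WT replicate 2 alone, at 0.45 CPM. The ratio of F2rl1 to F2r, which does not depend on how a library is scaled, was 2.59, 2.24 and 2.55 in p63alphaKO and 1.11, 1.27 and 1.05 in WT. F2rl1 was picked for its difference and F2r differed little, so the separation of this ratio follows largely from that choice.

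Ratios within a library set mRNA levels of proteases over that of the inhibitor, apart from the scaling. They are used here to compare libraries, not genes, and do not measure proteins or their activity. The summed kallikrein members over Spink5 gave 0.769, 0.810 and 0.859 in p63alphaKO and 0.940, 0.923 and 0.721 in WT, with overlapping groups. Klk5 over Spink5 gave 0.119, 0.101 and 0.115 in p63alphaKO and 0.116, 0.121 and 0.112 in WT, close together in all 6 libraries. Klk7 over Spink5 averaged 0.633 ± 0.0518 in p63alphaKO and 0.656 ± 0.109 in WT (SD, n = 3 each), a difference smaller than either SD.

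Of the 6 member kallikreins, Klk8 and Klk6 were those whose ratio to Spink5 did not overlap between the groups, in opposite directions. Klk8 over Spink5 was 0.0435, 0.0376 and 0.0419 in p63alphaKO and 0.0596, 0.0589 and 0.0535 in WT. Each p63alphaKO library lay below each WT library, as it did for 37.6% of the 7463 other tested genes set over Spink5, which was itself higher in each p63alphaKO library. Klk6 over Spink5 was 0.00270, 0.00362 and 0.00552 in p63alphaKO and 0.000111, 0.00183 and 0.00172 in WT, on 1 to 26 reads of Klk6 in WT. It was higher with no overlap, as for 0.925% of these genes. Klk6 reached the minimum for testing only through its p63alphaKO level, so this share does not measure how unusual its separation is. Klk11 over Spink5 overlapped between the groups, at 0.0208, 0.0205 and 0.0115 in p63alphaKO and 0.0273, 0.0279 and 0.0202 in WT. Prss8 over St14 averaged 3.11 ± 0.423 in p63alphaKO and 2.16 ± 0.679 in WT, and these groups overlapped too. The ratios are given as descriptions, and no test of them was run.

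**Figure D3:**
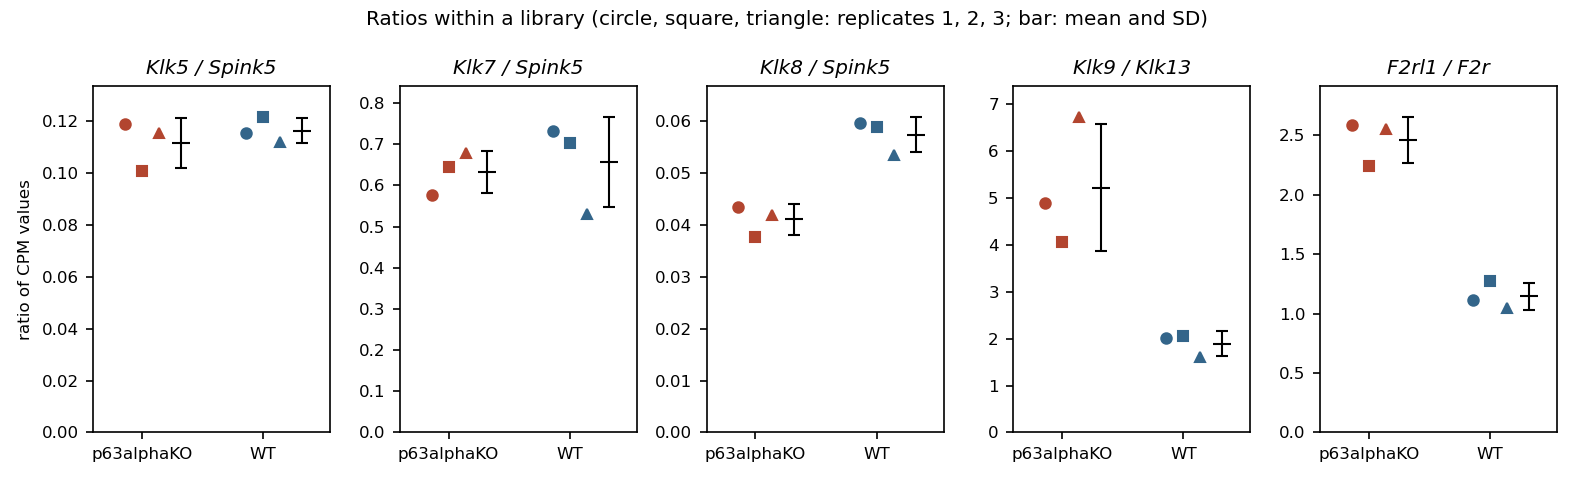
Ratios of CPM values within each library, p63alphaKO left and WT right, with symbols for replicates and a bar for the mean and SD (n = 3). Klk8 over Spink5, Klk9 over Klk13 and F2rl1 over F2r do not overlap between the groups, while Klk5 over Spink5 and Klk7 over Spink5 do. Set over Spink5, 37.6% of the 7463 other tested genes are lower in p63alphaKO with no overlap, as Klk8 is. Spink5 is itself higher in each p63alphaKO library. The separation of Klk9 over Klk13 follows from those of Klk9 and Klk13, and F2rl1 was picked for its difference.

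The member kallikreins sit in the mouse kallikrein locus, a run of 26 genes on 1 strand over 539 kb (chr7:43690418-44229618, mm10) with no other coding gene between them. Of the 26, 13 were at 0 in all libraries, all but 1 of them of the Klk1b group, which has expanded in rodents, or its neighbour Klk1. In the same locus Klk14, a kallikrein known from human skin, had reads in p63alphaKO replicate 1 alone, at 1.69 CPM. Klk12 and Klk4 stayed under 3 CPM in every library. Besides the members, Klk9 and Klk13 alone passed the minimum for testing.

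Klk9 and Klk13, neighbours of the members, differed between the genotypes in opposite directions, and neither passed the test. Klk9 (chr7:43791891-43796757), which ends 819 bases before Klk8 starts, was at 388, 360 and 517 CPM in p63alphaKO and 311, 257 and 192 CPM in WT, a log2 fold change of 0.74 (interval 0.31 to 1.17, adjusted p = 0.0725 by limma). Klk13 (chr7:43712567-43727534) was at 79.3, 88.8 and 77.0 CPM in p63alphaKO and 154, 125 and 120 CPM in WT, a log2 fold change of -0.69 (interval -1.08 to -0.30, adjusted p = 0.0688). For both genes the groups did not overlap. Of all tested genes, 7.6% were higher and 13.4% lower with no overlap. Klk9 passed without WT replicate 1 (0.90, adjusted p = 0.0365 by limma) and with DESeq2 (adjusted p = 0.0276). It did not pass in 14 of the 16 other settings, with an adjusted p of up to 0.345 by limma, without p63alphaKO replicate 3. Klk13 over Spink5 was 0.0181, 0.0194 and 0.0148 in p63alphaKO and 0.0436, 0.0393 and 0.0285 in WT, and Klk9 over Spink5 overlapped. Klk9 over Klk13 was 4.90, 4.05 and 6.71 in p63alphaKO and 2.02, 2.06 and 1.60 in WT. Klk9 and Spink5 were higher and Klk13 lower with no overlap, so Klk9 over Klk13 and Klk13 over Spink5 had to separate the groups.

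**Figure D4:**
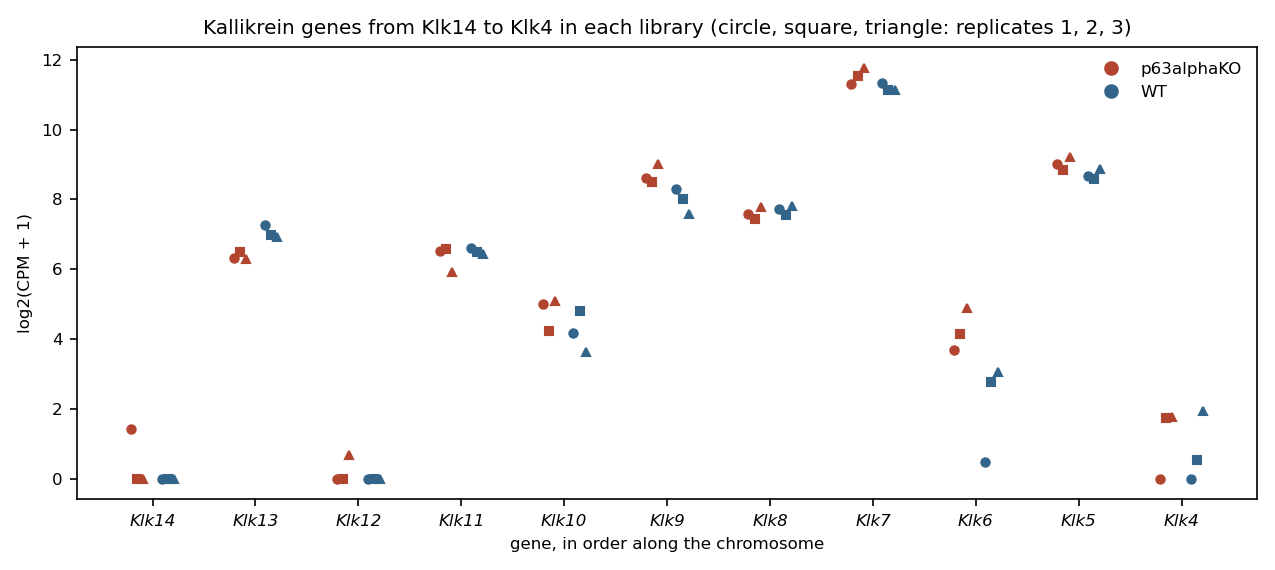
Level as log2(CPM + 1) of the 11 kallikrein genes from Klk14 to Klk4, in their order along the chromosome, with p63alphaKO left of WT and symbols for replicates. Klk7 has the highest points, Klk14 and Klk12 lie at 0 in most libraries, and the groups are apart for Klk13, Klk9 and Klk6. Among all tested genes, 7.6% are higher and 13.4% lower in p63alphaKO with no overlap. Klk6 was tested only through its p63alphaKO level, so for it the share does not measure how unusual the gap is.

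RefSeq promoter windows were used for 6 of the 10 members, the kallikreins, in 8 windows of the 250 bases before an annotated start (GRCm38.p6). They were searched on both strands for the p53 family half-site, to which p63 can also bind, for the AP-1 site TGANTCA and for the Grainyhead site AACNNGTT. The half-site was in 1 of the 8 windows, that of Klk10, and in 7.13% of the 32851 windows of all genes. The AP-1 and Grainyhead letters were in 0 of the 8, against 6.75% and 3.64% of all windows. A match is a description of letters and not a binding site. The Klk10 window is shown as the one with a match, which starts at position -204 counted from the start site and is in capitals. It covers chr7:43780804-43781053 on the plus strand.
Klk10: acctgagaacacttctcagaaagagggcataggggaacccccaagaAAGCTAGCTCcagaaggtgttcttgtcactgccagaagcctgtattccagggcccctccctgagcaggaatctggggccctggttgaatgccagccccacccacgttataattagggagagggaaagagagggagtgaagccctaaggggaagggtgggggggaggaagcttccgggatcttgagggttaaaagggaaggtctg

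Other serine proteases of epithelia had 0 called genes among 5 tested of 20 listed, with 4 positive fold changes and a median of 0.61. Furin, a protease that activates many proproteins, was at 124, 176 and 224 CPM in p63alphaKO and 126, 107 and 84.7 CPM in WT (log2 fold change 0.70, adjusted p = 0.134 by limma). The membrane-bound protease genes Tmprss11f and Tmprss13 had log2 fold changes of 0.71 (adjusted p = 0.141) and 0.61 (adjusted p = 0.156), and Tmprss4 had one of -0.53 (adjusted p = 0.217). Tmprss11f was at 53.9, 60.0 and 78.4 CPM in p63alphaKO and 32.3, 36.0 and 48.5 CPM in WT, higher with no overlap, as were 7.6% of all tested genes. Furin, Tmprss13 and Tmprss4 each share exonic bases with an antisense gene.

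Other serine protease inhibitors had 0 called genes among 16 tested of 27 listed, with 8 positive and 8 negative fold changes and a median of -0.018. Spint1 and Spint2, the inhibitors that hold matriptase in check, were at 0.21 (adjusted p = 0.682 by limma) and 0.047 (adjusted p = 0.969) on the same scale. Serpine2, an inhibitor of thrombin and plasminogen activators, was at 11.9, 11.1 and 4.77 CPM in p63alphaKO and 41.7, 23.7 and 22.7 CPM in WT (-1.60, adjusted p = 0.0523). Fibroblast and dermis markers were lower in the same libraries: their 10 genes summed to between 249 and 586 CPM in p63alphaKO and between 2054 and 4749 CPM in WT, and their part in the Serpine2 value was not tested. The serpins Serpinb6c, Serpinb3b and Serpinb8 had log2 fold changes of -1.56 (adjusted p = 0.120), -0.67 (adjusted p = 0.175) and 0.59 (adjusted p = 0.120). Serpinb3b and Serpinb6c belong to families of close copies, so reads could be split between copies.

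The list of other protease-activated receptors, tissue factor receptors and PAR signalling partners had 0 called genes among 7 tested of 16 listed. It had 3 positive fold changes, that of F2r among them, and 4 negative ones. The G protein genes Gna11 and Gnaq, which carry PAR2 signals, had log2 fold changes of -0.53 (adjusted p = 0.311 by limma) and -0.35 (adjusted p = 0.476). In both the p63alphaKO libraries lay below all WT libraries, as they did for 13.4% of all tested genes. Gna11 was at 27.1, 33.5 and 21.2 CPM in p63alphaKO and 38.2, 38.4 and 40.6 CPM in WT. The keratinocyte ion channel gene Trpv3 had a value of 0.53 (adjusted p = 0.460).

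Substrates of the circuit had 0 called genes among 15 tested of 22 listed, with 5 positive and 10 negative fold changes and a median of -0.11. Cdsn, the gene of corneodesmosin, was at 2107, 2063 and 2570 CPM in p63alphaKO and 1935, 1931 and 1519 CPM in WT (0.33, adjusted p = 0.344 by limma). It was higher with no overlap, as were 7.6% of all tested genes. The cytokine gene Il18 had a value of 0.35 (adjusted p = 0.307). The desmosome genes Dsc3 and Pkp1 had log2 fold changes of -0.58 (adjusted p = 0.162) and -0.44 (adjusted p = 0.215), and Pkp1 was at 697, 657 and 563 CPM in p63alphaKO and 706, 912 and 998 CPM in WT.

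Cysteine and aspartic proteases of the cornified layer had 0 called genes among 13 tested of 16 listed, with 9 positive fold changes and a median of 0.25. Asprv1, the gene of the aspartic protease SASPase that processes filaggrin, was at 7574, 8790 and 10374 CPM in p63alphaKO and 6813, 6549 and 4891 CPM in WT (0.55, adjusted p = 0.123 by limma). The cathepsin genes Ctsh and Ctsl had log2 fold changes of 0.57 (adjusted p = 0.107) and 0.56 (adjusted p = 0.269), and the calpain subunit gene Capns2 one of -0.55 (adjusted p = 0.288). Ctsh and Asprv1 were higher in every p63alphaKO library than in any WT library, as were 7.6% of all tested genes. Ctsl shares exonic bases with an antisense gene.

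Granular layer markers, the layer in which kallikreins and LEKTI are made, summed to 41194, 38867 and 52341 CPM in p63alphaKO and 40257, 38407 and 47274 CPM in WT, with overlapping groups and 0 of 6 called. Flg, the filaggrin gene, made up the largest part of this sum, at 18384, 17068 and 23474 CPM in p63alphaKO and 18961, 17246 and 25462 CPM in WT. Of the 6, Lor and Cnfn, which encode proteins of the cornified layer, were higher in every p63alphaKO library than in any WT library. The share of such genes among all tested was 7.6%. Lor was at 12471, 12115 and 16584 CPM in p63alphaKO and 12087, 11673 and 11469 CPM in WT (log2 fold change 0.21, adjusted p = 0.590 by limma). Cnfn was at 1034, 1136 and 1222 CPM in p63alphaKO and 830, 788 and 587 CPM in WT (0.63, adjusted p = 0.0669). The part of this layer in the values of the members was not tested.

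**Figure D5:**
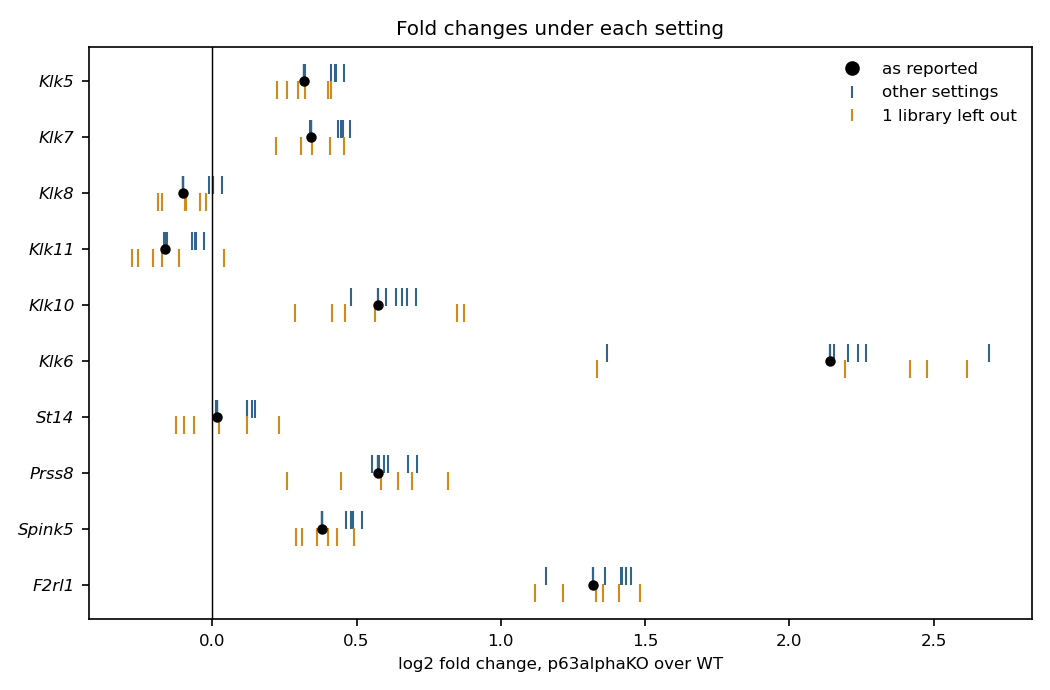
Log2 fold change, p63alphaKO over WT, of each member as reported (black), under other settings (blue) and with 1 library left out (orange). Klk8, Klk11 and St14 have values on both sides of 0, and Klk6 spans the widest range, between 1.33 and 2.69.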

How the data were processed

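RNA of 6 epidermis libraries was measured by 3′ digital mRNA sequencing, per the labels. STAR, HTSeq and the build mm10 are named in the submitters' processing notes, without versions, annotation or use of strand. The table is named as normalized counts, but each column sums to between 999157 and 999401, which makes the deposited unit CPM: the authors divided by each library's total. Values were whole multiples of 1 read within 0.0055 CPM for 100% of values above 0, which gave the reads. A mean of 10 CPM is between 25.7 and 44.8 reads. A count of 0 allows up to 3 reads, between 0.670 and 1.17 CPM. Limits and intervals of this kind cover counting error only.

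Groups came from sample titles. limma-trend (limma 3.58.1, R 4.3.3) was fitted on log2(CPM + 1), a scale that understates changes at low levels, with genotype as the only term. edgeR 4.0.16 and DESeq2 1.42.0 on the recovered reads, other pseudocounts, minimums and scalings, a replicate block and 1 left-out library were alternatives. Steps were tested on simulated data. The members and gene lists were chosen with earlier results of these data known. Named beyond the members were up to 4 genes with the smallest p from each list. Spint1, Spint2, F2rl2, F2rl3, the untested kallikreins, the markers outside the highest means and the genes named for overlap were chosen after their values were seen. Of the 30386 IDs, 30348 were in GENCODE vM21. Protein sequences were not used here.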

Additional observations from a re-analysis of the deposited data

How the results depend on the processing

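Other minimum means and the replicate block cannot move a fold change here, so under them the direction was fixed and only the adjusted p could differ. Of 141 values of the 9 members under 16 other settings, these included, 133 kept their direction and their side of the threshold. Those that changed sign were Klk8 at 0.0040 with TMM factors, 0.034 with upper quartile factors and 0.0034 with DESeq2, and with 1 library left out Klk11, which lay between -0.28 and 0.042 (0.042 without p63alphaKO replicate 3), and St14, which lay between -0.12 and 0.23 (-0.097 without WT replicate 3, -0.063 and -0.12 without p63alphaKO replicates 2 and 3). DESeq2 called 1 member, Klk6. With 1 library left out the calls among the 9 stayed at 0, and Klk6 then gave no value without p63alphaKO replicate 3, since it fell under the minimum.

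Over all tested genes 123 were called. The count was 256 with a minimum mean of 1 CPM, 36 with 50 CPM, 82 with edgeR and 317 with DESeq2, and between 38 and 179 with 1 library left out. Lower genes were 71.5% of the calls, 57.5% with TMM and 48.1% with upper quartile factors. The cause of these shifts was not tested. With the replicate number as a block 127 genes and 0 of the 9 members were called. Same-numbered libraries did not deviate together (r = -0.023, 0.066 and -0.11 for replicates 1, 2 and 3). These correlations rest on deviations from means of 3 libraries, so they cannot decide whether the libraries were paired. The sources used here do not say. Depth limits Klk6, with 1 to 26 reads in WT libraries.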
